A study of Homo sapiens with 32 samples.

Results

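Of 4478 transcript regions long enough and read deeply enough to judge, 200 (4.47%) had few reads marked as new after a 2 h labelling pulse in unstressed HCT116 cells. These slow-turnover transcripts of middle length are the subject here. SLAM-seq, the assay used, feeds cells 4-thiouridine (s4U), a uridine analogue that sequencing can read as C in place of T. A read with T-to-C conversions is therefore taken to come from RNA made during the pulse. A new read can also lack conversions. No library without s4U was among the 32, so conversions from other sources, such as sequencing errors, were not measured. Each of 18829 named genes was represented by 1 curated RefSeq transcript, the one most read in the 32 libraries together. A gene was chosen if its counted region, at the 3′ end of the transcript, was at least 300 and under 4000 bases long and had at least 400 reads summed over the 4 libraries of unstressed, vehicle-treated parental cells. At most 5% of those reads could carry conversions (the labelled share). The members were thus chosen by their labelled share in that group, which is not a finding, and no comparison with that group was tested.

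The cells were of the established human colorectal cancer line HCT116 and carried a doxycycline-inducible OsTIR1, the plant F-box protein that sends degron-tagged proteins to the proteasome when auxin is present. The parental line (HCT116 tetON OsTIR1) was compared with a line whose endogenous IGF2BP3, an RNA-binding protein, was homozygously tagged with the mini degron mAID (HCT116 tetON OsTIR1 mAID-IGF2BP3). Whether the tagged line is a single clone is not stated. The 8 groups of 4 libraries crossed the line with auxin (500 µM for 9 h) or vehicle, and with tunicamycin (5 µg/mL for 5 h) or DMSO. Tunicamycin blocks N-glycosylation and so causes endoplasmic reticulum (ER) stress. Every well, controls included, received doxycycline (200 ng/mL for 24 h) and 250 µM s4U for the last 2 h. Each replicate was 1 well of a 24-well plate, so p-values measure the spread between wells of the same line.

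An mRNA pool reaches a level set by its synthesis and its decay. At a steady level, the share of molecules made during a pulse is small where decay is slow and large where it is fast. Abundant messages for glycolysis, ribosomes, respiration and lysosomes are known to be long-lived, whereas immediate-early and many zinc-finger messages turn over quickly. In ER stress, PERK, IRE1 and ATF6 slow general translation and switch on genes for protein folding, glycosylation, vesicle traffic and amino acid supply through ATF4, CHOP, XBP1 and ATF6. In a long-lived message, new synthesis is added to a large old pool, so the labelled share can move before the total does.

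Among the slow-turnover transcripts, 9 had more labelled reads under tunicamycin in each of the 3 stress comparisons described below. Their promoters are shown because ATF6 and its partner NF-Y are known to bind ER stress response elements built from a CCAAT box with a CCACG motif. The stretches run from base -130 to -1 relative to the annotated gene start, 5′ to 3′ on the gene's strand (RefSeq, GRCh38.p14). Capitals mark CCAAT boxes, the CCACG motif and the cAMP response element core TGACGTCA on either strand. On the other strand a CCAAT box appears as ATTGG, whereas the CCACG motif appears there as CGTGG. The gene start need not be the start of the counted transcript.
NUCB1 (chr19:48900182-48900311, plus strand): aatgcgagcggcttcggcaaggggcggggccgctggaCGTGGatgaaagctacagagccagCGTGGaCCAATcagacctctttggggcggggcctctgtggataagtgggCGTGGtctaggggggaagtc
WARS1 (chr14:100376328-100376457, minus strand): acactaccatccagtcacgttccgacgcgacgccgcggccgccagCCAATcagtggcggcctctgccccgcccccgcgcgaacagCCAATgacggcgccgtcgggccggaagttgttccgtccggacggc
OS9 (chr12:57694002-57694131, plus strand): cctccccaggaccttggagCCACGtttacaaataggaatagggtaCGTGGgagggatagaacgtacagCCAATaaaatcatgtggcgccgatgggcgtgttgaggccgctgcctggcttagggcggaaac
DDOST (chr1:20661370-20661499, minus strand): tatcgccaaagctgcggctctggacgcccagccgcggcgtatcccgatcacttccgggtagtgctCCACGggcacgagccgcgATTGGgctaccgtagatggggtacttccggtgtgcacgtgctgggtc
LMAN2 (chr5:177351669-177351798, minus strand): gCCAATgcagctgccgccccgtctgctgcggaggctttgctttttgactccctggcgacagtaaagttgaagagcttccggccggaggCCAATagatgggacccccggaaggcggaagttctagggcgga
SIL1 (chr5:139198369-139198498, minus strand): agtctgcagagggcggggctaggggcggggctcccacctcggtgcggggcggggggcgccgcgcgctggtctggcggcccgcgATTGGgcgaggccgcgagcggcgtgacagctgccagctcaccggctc
CLIC4 (chr1:24745317-24745446, plus strand): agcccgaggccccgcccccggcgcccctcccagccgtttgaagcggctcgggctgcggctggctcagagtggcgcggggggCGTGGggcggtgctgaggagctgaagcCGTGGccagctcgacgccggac
FKBP1A (chr20:1393055-1393184, minus strand): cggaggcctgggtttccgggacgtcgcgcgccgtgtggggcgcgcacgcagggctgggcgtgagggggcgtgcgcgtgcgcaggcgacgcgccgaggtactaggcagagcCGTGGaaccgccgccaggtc
CHPF (chr2:219543810-219543939, minus strand): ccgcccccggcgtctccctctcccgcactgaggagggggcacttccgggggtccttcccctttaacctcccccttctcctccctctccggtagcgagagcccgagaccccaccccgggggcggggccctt
The NUCB1 stretch holds the ER stress response element II (ATTGG, then any 1 base, then CCACG) on the minus strand with its first base at -69. In a window of 250 bases before to 50 after the start, 1 of the 164 slow-turnover genes with a promoter entry (of 200) held that element, against 15 of 27305 promoters (0.0549%). The element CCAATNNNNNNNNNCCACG was in 0 of the 164 and in 0.0806% of all promoters. CCAAT alone was in 38.4% of the 164 (63) and in 35.7% of all promoters. CCACG alone was in 54.3% (89) and 37.9%. The CCAAT box is also part of both longer elements, as is the CCACG motif, and each is counted there again. TGACGTCA was in 3 of the 164 (1.83%; CHPF, CYSTM1 and LDHA) against 1.98% of all promoters. The CHPF stretch holds none of these motifs, because its TGACGTCA copies lie farther upstream, at -222 and -177. A match describes the letters only.

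The 200 transcripts held between 400 and 55978 reads in the choosing group, with a median of 1520. Their median labelled share there was 3.97%, against 15.2% over all 4478 eligible regions, whose middle 50% ran from 10.0% to 23.3% and whose highest was 83.9%. Just inside the threshold were TOMM7 (4.96%, 684 of 13790 reads), LSM4 (4.98%) and NIPSNAP1 (5.00%). Just outside were PSMD8 (5.01%), AK1 (5.02%) and OAZ1 (5.03%). The threshold thus lay in a continuous range of shares. Several transcript rows existed for 117 of the 200 genes, and the deposited tables count a read in a shared region for each row. MICOS10-NBL1 and NBL1 had identical counts, so 199 entered the tests of total reads.

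The most read slow-turnover messages came from the translation and glycolysis machinery. RPL32, a protein of the large ribosomal subunit, had 55978 reads and a labelled share of 3.44% (95% Wilson interval 3.29% to 3.60%). RPS3, of the small subunit, followed with 52893 reads (2.65%). The glycolytic enzymes ENO1 (47352 reads, 4.49%), PKM (31889, 3.03%) and LDHA (15032, 4.82%, interval 4.49% to 5.17%) were among the 10 most read. Also among these 10 were the chromatin protein HMGA1 (31779, 3.45%), RPL13 (26359, 4.28%), the calcium-dependent membrane binder ANXA2 (19699, 4.29%) and the actin-severing protein CFL1 (16091, 3.81%). Reads of ribosomal protein genes, H2AZ2 and EIF5AL1 may be divided with near-identical copies or pseudogenes and are uncertain for that reason. Whether counting used the strand is not given in the sources used here, so reads of overlapping or antisense genes cannot be told apart.

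The 10 lowest shares ran from 0.25% to 2.10%, on 400 to 2830 reads. LHPP, a phosphatase, had 1 labelled read of 400 (0.25%, 95% Wilson interval 0.0441% to 1.40%), and HYI had 4 of 555 (0.721%). MYL9, a regulatory light chain of non-muscle and smooth muscle myosin, had 30 of 2830 (1.06%, interval 0.744% to 1.51%). ARL2 (1.36%), GAMT (1.37%), CRIP2 (1.52%), CLU (1.91%), IFI6 (1.93%), ATP5F1D (2.05%) and LY6E (2.10%) completed the lowest 10. Their medians over the other 7 groups, which took no part in the choice, were 1.44% for LHPP, 1.42% for HYI, 0.892% for MYL9, 2.18% for ARL2, 1.21% for GAMT, 1.52% for CRIP2, 1.33% for CLU, 2.07% for IFI6, 1.35% for ATP5F1D and 1.53% for LY6E. All 10 medians were at or below 2.18%. The largest shift from the choosing value was that of LHPP, which also had the fewest reads. Without a library lacking s4U, how much of such low shares is new RNA was not measured.

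**Figure D1:**
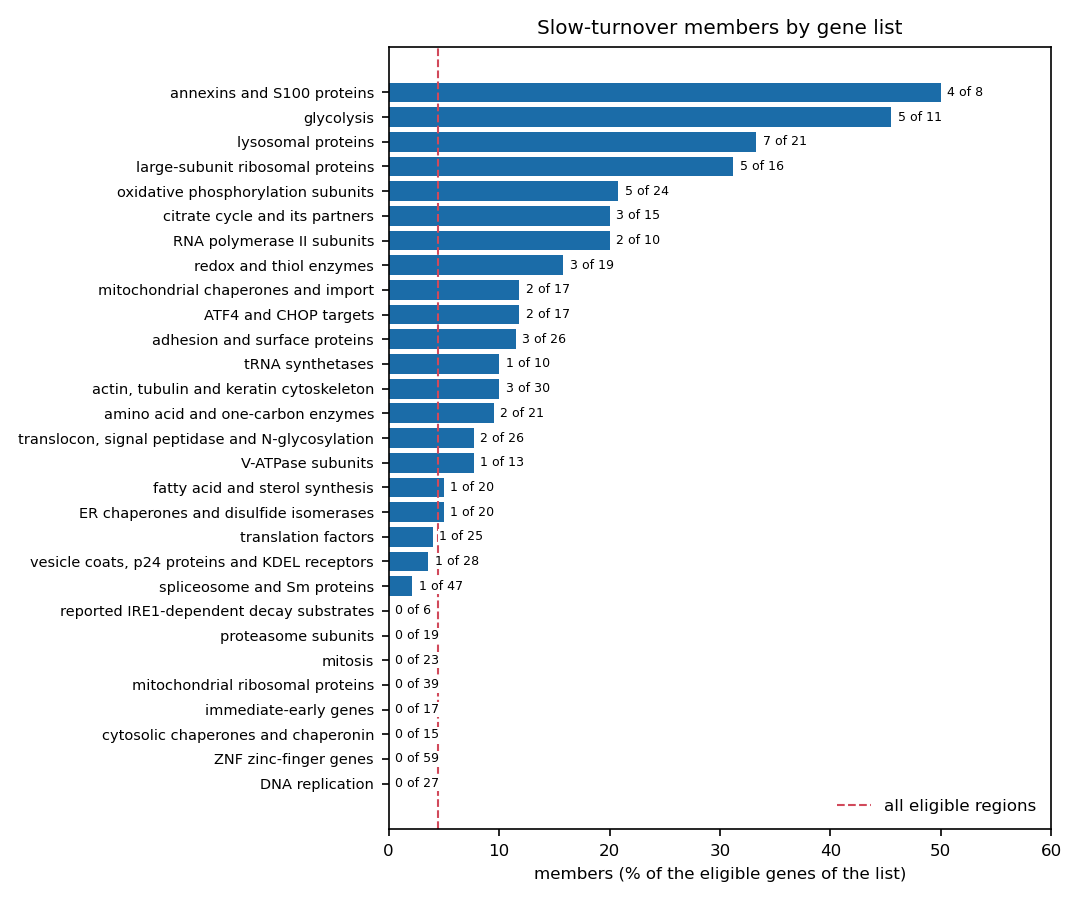
Share of each gene list's eligible genes (x axis, %) that were slow-turnover members, with the dashed line at the 4.47% of all eligible genes. Annexins and S100 proteins (50.0%) and glycolysis (45.5%) are at the top, and proteasome, mitosis and zinc-finger genes are at 0.

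The members fell unevenly over gene groups, which is a description because the share chose them. Annexins and S100 proteins had the highest fraction, 4 of 8 eligible genes. Glycolysis had 5 of 11 (ENO1, PKM, LDHA, TPI1 and PGK1), with a median share of 5.47% over its eligible genes. Lysosomal proteins had 7 of 21, among them PSAP, the precursor of the saposins that activate sphingolipid breakdown, the membrane glycoprotein LAMP1, the progranulin gene GRN and the protease CTSD. Large-subunit ribosomal proteins had 5 of 16, among them RPL32, RPL13, RPL37 and RPL28, and oxidative phosphorylation subunits 5 of 24 (UQCRQ, UQCR11, NDUFB8, NDUFA9 and ATP5F1D). The plot of members by gene list shows all lists with at least 5 eligible genes.

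Smaller numbers came from the citrate cycle with 3 of 15 (MDH2, OGDH and IDH3G), redox enzymes with 3 of 19 (SOD1, GPX1 and AKR1B1), RNA polymerase II with 2 of 10 (POLR2L and POLR2E) and surface proteins with 3 of 26 (B2M, HLA-C and BSG). The secretory lists, whose genes respond to ER stress, gave few. Translocon and N-glycosylation gave 2 of 26 (DDOST and PRKCSH), ER chaperones 1 of 20 (SIL1), vesicle coats and p24 proteins 1 of 28 (LMAN2), and ATF4 and CHOP targets 2 of 17 (WARS1 and EIF4EBP1). No member came from 39 eligible genes of the mitochondrial ribosome, 19 of the proteasome, 15 cytosolic chaperones, 27 genes of DNA replication, 23 of mitosis, 17 immediate-early genes or 59 ZNF genes. The median share over the eligible genes was 21.5% for mitosis, 32.6% for ZNF genes and 63.4% for immediate-early genes. In all, 55 members were in a list and 145 were in none.

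The counted regions of the members differed from the other eligible regions in length and composition. Sequences could be matched to annotated 3′ ends of GENCODE release 29 for 175 members (87.5%) and for 86.8% of the other 4278 regions. The median length was 661 bases over all 200 members and 1276 over all the others. Over the same regions, thymine made up a median of 23.5% of member bases and 30.0% of the others. In the matched regions GC content was 56.5% and 43.6%. ATTTA, the core of AU-rich decay elements, occurred in 35.4% of matched member regions (62) and in 76.4% of the others. The longer element TATTTAT was in 10.3% and 31.99%, and TGTANATA, the Pumilio recognition element, in 4.57% and 27.3%. Motifs were searched on the transcribed strand, and TATTTAT contains ATTTA. The polyadenylation signal AATAAA lay in the last 60 bases of 64.6% and 68.6%.

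Short regions hold fewer motifs of any kind, so the counts were also taken by length. Among regions of 300 to under 600 bases, ATTTA was in 21.3% of members and 45.9% of the others. It was in 36.8% and 70.5% at 600 to under 1200 bases, and in 58.1% and 91.2% at 1200 to under 4000 bases. Members were lower in every length class. Their median GC content was higher in each class, at 57.4%, 57.0% and 54.8% against 49.2%, 46.8% and 40.8%. ATTTA consists of A and T only, and classes of length do not even out composition. Whether the motif counts differ beyond base composition was not tested. Per kilobase, members held 0.852 ATTTA copies and the others 2.158.

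Thymine content also bears on the measurement, since a read that covers few T positions has fewer chances to show a conversion. Members covered a median of 17.4 T positions per read and the other eligible regions 23.7. Counted per covered T position, the median conversion rate in the choosing group was 0.339% in members and 1.28% in the others, values that the choice by labelled reads largely fixes. In the 7 other groups it was 0.21% to 0.363% in members and 0.77% to 1.28% in the others. By the rate in the choosing group 194 of the 200 lay in the lowest 10% of eligible genes. The 6 above it were ATN1, CLN6, EDF1, EGFL7, RPL13 and YIF1B. ATN1 covered 3.53 T positions per read and had a conversion rate of 1.74%, at percentile 69.7. Its coverage was the lowest of the 200, while its counted region is 20.7% thymine.

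**Figure D2:**
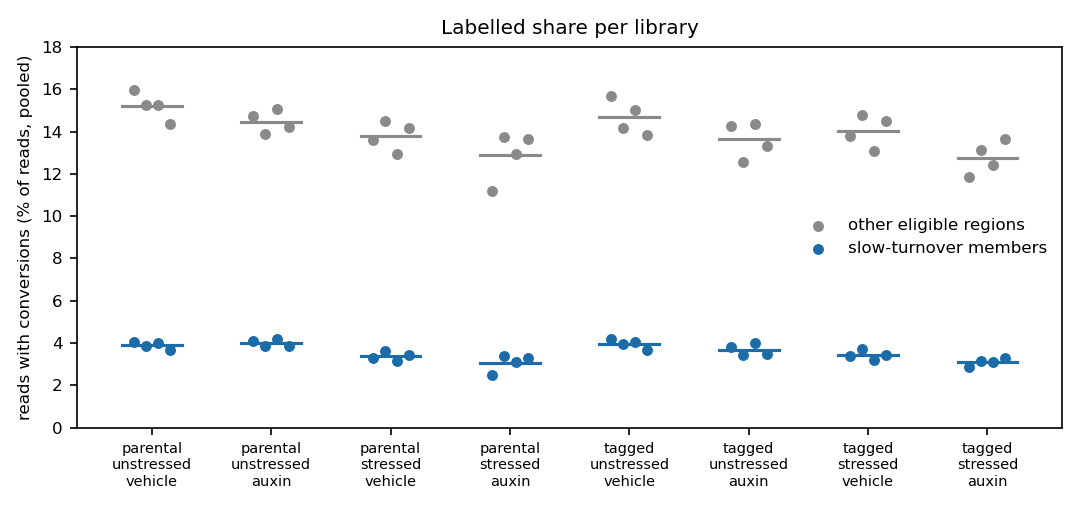
Labelled share (y axis, % of reads) of the pooled members and of the other eligible genes in each of the 32 libraries, by group. Members lie between 2.51% and 4.19% and the others between 11.2% and 15.9%, with no overlap in any group. In unstressed parental cells with vehicle the share chose the members, so the separation there was set by the choice.

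The members kept a low labelled share in the 7 groups that took no part in the choice. Pooled over members, the share was 4.00% ± 0.162 (SD, n = 4) in unstressed, auxin-treated parental cells, against 14.5% ± 0.517 for the other eligible genes. In unstressed tagged cells it was 3.97% ± 0.219 with vehicle (others 14.7% ± 0.841) and 3.68% ± 0.271 with auxin (others 13.6% ± 0.845). Under tunicamycin it was 3.38% ± 0.213 in parental cells (others 13.8% ± 0.703) and 3.08% ± 0.395 with auxin (others 12.9% ± 1.18). Stressed tagged cells had 3.43% ± 0.226 with vehicle (others 14.0% ± 0.763) and 3.10% ± 0.175 with auxin (others 12.8% ± 0.786). In each of the 3 pairs of groups that differ only in tunicamycin and leave out the choosing group, the mean share was lower under stress for members and for the others. In these groups 153 to 178 of the 200 members stayed at or below 5%, as did 1.01% to 7.50% of the others.

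At or below 5% in all 7 other groups were 108 members, and 92 exceeded it in at least 1. CLIC4, CYSTM1 and GALM exceeded 5% in all 7. CHPF, LMAN2, NT5E, NUCB1 and S100A16 exceeded it in all 4 stressed groups and in no unstressed one. WARS1 reached the highest share of any member in each stressed group, 16.8% and 15.2% in parental cells with vehicle and auxin and 16.9% and 16.0% in tagged cells, from 4.86%, 5.21% and 5.28% in the 3 unstressed groups not used for the choice.

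The libraries held 0.987 M to 6.98 M reads in named genes. One stood apart, replicate 1 of parental cells given tunicamycin and auxin, with 0.987 M reads (the others 2.55 to 6.98), 15.1 covered T positions per read (20.3 to 24.1) and 8.86% labelled reads (10.3% to 13.4%). Results that rest on it are given with and without it. HSPA5 and DDIT3, standard markers of ER stress, rose by 2.52 to 2.70 and by 5.22 to 5.30 log2 units in total reads in the 3 stress comparisons. IGF2BP3 RNA did not pass the test with auxin in tagged cells (log2 change -0.06 ± 0.11 unstressed and -0.13 ± 0.11 stressed), and since the degron acts on the protein, its RNA does not check the depletion. Of 10 colon epithelial markers, 7 averaged at least 10 CPM (read counts scaled to each library's total), whereas CDX1, VIL1 and LGALS4 averaged under 1. Of 12 markers of blood, endothelial and stromal cells, 10 averaged under 1 CPM and 4 of these were at 0 throughout. The other two were the macrophage marker CD68, at 2.43 to 14.0 CPM, and the collagen gene COL1A1, at 18.5 to 59.8, while COL1A2 and COL3A1 were at 0 in every library. Their part in the results was not tested. In bulk RNA, fewer cells and less RNA per cell cannot be told apart.

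Under tunicamycin 9 of these slow transcripts, among them WARS1, NUCB1 and SIL1, had more labelled reads in every stress comparison, and LDHA had fewer. Stressed and unstressed wells were compared in parental cells with auxin and in tagged cells with vehicle and with auxin, 3 comparisons that share no library. Tests were edgeR quasi-likelihood F-tests with Benjamini-Hochberg adjustment over all genes tested, at a threshold of 0.05, and ± after a log2 fold change gives its standard error. A label filter was passed by 157 members. In parental cells with auxin 16 had more labelled reads and 6 fewer (10.2% and 3.82% of the 157). Of all 8955 genes tested, 7.93% were higher and 3.45% lower. Tagged cells with vehicle had 13 higher and 5 lower (8.28% and 3.18%, against 6.93% and 2.49% of all genes). Tagged cells with auxin had 12 higher and 5 lower (7.64% and 3.18%, against 6.93% and 2.86%). The members' counts were near this background in each comparison, and their median changes were 0.03, -0.04 and -0.03 log2 units against -0.02, -0.02 and -0.04 for all genes. How many of all genes passed in all 3 comparisons is not given here, so the 9 cannot be set against a background.

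These labelled counts were scaled so that the typical gene did not change. Scaled by total reads, the typical gene fell by 0.31, 0.24 and 0.27 log2 units, and the members' calls became 11 higher and 22 lower in parental cells with auxin, 10 and 17 in tagged cells with vehicle and 7 and 14 with auxin. In either direction these were 21.0%, 17.2% and 13.4% of members, against 18.8%, 12.7% and 14.0% of all genes. Directions given here are therefore relative to the typical gene. LDHA was lower under both scalings.

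The 9 members with more labelled reads in all 3 comparisons were WARS1, NUCB1, SIL1, OS9, DDOST, LMAN2, CLIC4, FKBP1A and CHPF, and 20 were higher in at least 1. WARS1 charges tryptophan onto its tRNA and is a target of ATF4. SIL1 exchanges the nucleotide of HSPA5, OS9 delivers misfolded glycoproteins to the ER degradation complex, and DDOST is a subunit of the oligosaccharyltransferase that tunicamycin starves of its substrate. LMAN2 is a lectin that carries glycoproteins from the ER to the Golgi, and NUCB1 is a calcium-binding Golgi protein. CHPF polymerises chondroitin in the Golgi, CLIC4 is an intracellular chloride channel protein and FKBP1A is the proline isomerase that binds rapamycin. The measured values follow for those with the clearest data.

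**Figure D3:**
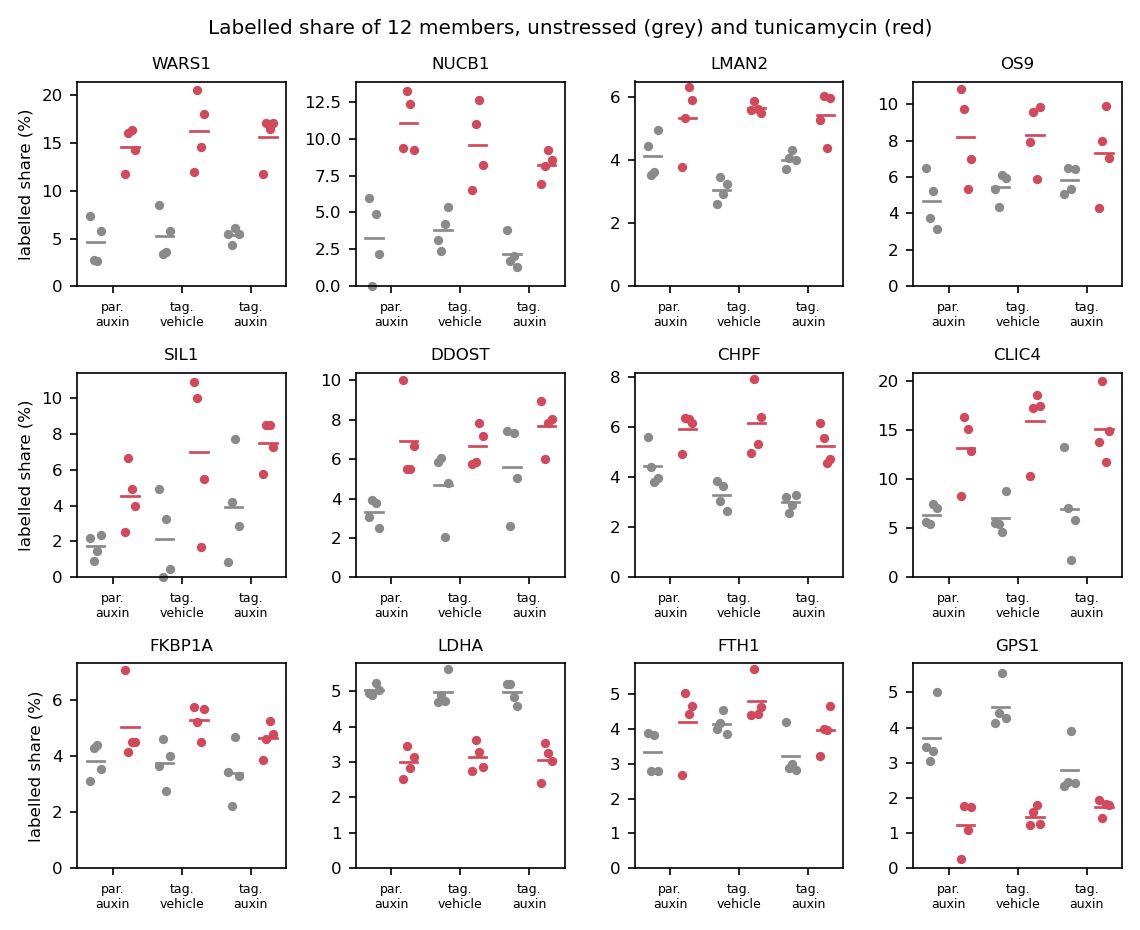
Labelled share (y axis, % of reads) of 12 members in each library of the 3 stress comparisons, with grey points for unstressed and red for tunicamycin. WARS1 moves from 2.65% to 8.49% in unstressed libraries to 11.7% to 20.6% in stressed ones, and LDHA from 4.59% to 5.62% down to 2.40% to 3.62%.

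WARS1 (chr14:100333790-100376327, RefSeq gene span in GRCh38.p14) had labelled shares of 7.40%, 2.81%, 2.65% and 5.76% in the 4 unstressed parental libraries with auxin, and of 11.7%, 16.1%, 16.4% and 14.3% under stress. In tagged cells with vehicle the shares were 8.49%, 3.36%, 3.56% and 5.84% unstressed and 11.9%, 20.6%, 14.6% and 18.1% stressed. With auxin they were 5.45%, 4.33%, 6.16% and 5.53% and then 11.8%, 17.1%, 16.5% and 17.1%. Every stressed library lay above every unstressed one. WARS1 labelled reads rose by 3.18 ± 0.24, 2.91 ± 0.24 and 2.89 ± 0.24 log2 units in these 3 comparisons (edgeR adjusted p = 1.65e-17, 3.37e-16 and 9.1e-16). Its share against the typical gene rose by 2.16 ± 0.22, 2.08 ± 0.22 and 2.02 ± 0.22. Total reads went from 109 ± 10.3 to 271 ± 58.7 CPM (SD, n = 4), from 116 ± 14.7 to 239 ± 44.3 and from 101 ± 5.31 to 217 ± 20.8, a log2 change of 1.31 ± 0.13, 1.05 ± 0.13 and 1.10 ± 0.13. WARS1 was the only member whose total reads rose in all 3 comparisons. Its library counts were 271 to 1113 reads with 10 to 201 labelled.

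NUCB1 (chr19:48900312-48923372) had shares of 5.98%, 0%, 4.88% and 2.18% in unstressed parental cells with auxin and of 9.40%, 13.2%, 12.4% and 9.26% under stress. The 0 stands for 0 of 183 reads, which allows a share of up to 1.64%. In tagged cells with vehicle NUCB1 went from 3.15%, 2.38%, 4.19% and 5.41% to 6.53%, 10.96%, 12.6% and 8.21%. With auxin it went from 3.83%, 1.70%, 2.03% and 1.29% to 6.90%, 8.13%, 9.26% and 8.56%. The groups did not overlap in any of the 3. Labelled reads of NUCB1 rose by 3.23 ± 0.47, 1.91 ± 0.46 and 2.70 ± 0.53 log2 units (edgeR adjusted p = 6.58e-07, 0.00291 and 0.000195), and the share by 2.18, 1.65 and 2.31. Without the library that stood apart, the labelled-read rise in parental cells with auxin was 2.54 ± 0.38. With limma on log2 ratios the share in tagged cells with vehicle rose by 1.62 at adjusted p = 0.10. Total NUCB1 reads in tagged cells did not pass the test (0.39 ± 0.36 and 0.57 ± 0.37).

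The ER proteins OS9, SIL1 and DDOST rose in labelled reads with less clear separation in share. OS9 (chr12:57694132-57721557) rose by 1.81 ± 0.30, 1.34 ± 0.29 and 1.25 ± 0.30 log2 units. Without the library that stood apart, its rise in parental cells with auxin was 1.43 ± 0.25. Its shares in tagged cells with auxin were 5.06%, 6.50%, 5.33% and 6.45% unstressed and 4.29%, 7.97%, 9.91% and 7.05% stressed, which overlap. DDOST (chr1:20651777-20661369) rose by 1.54 ± 0.32, 1.18 ± 0.31 and 1.14 ± 0.29. Without replicate 3 of the unstressed tagged vehicle group the second of these was 0.93 at adjusted p = 0.0535. SIL1 (chr5:138946724-139198368) rose by 2.54 ± 0.67, 2.14 ± 0.60 and 1.76 ± 0.56. The first of these was 2.22 ± 0.66 without the library that stood apart. SIL1 had 91 to 259 reads per library and at most 22 labelled. Its call in tagged cells with auxin was lost in 6 of the fits that left out 1 library of its groups (adjusted p up to 0.118) and with scaling by total reads (0.0532).

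LMAN2 and CLIC4 showed higher shares in tagged cells without a change in total reads that passed the test. LMAN2 (chr5:177331567-177351668) had shares of 2.59%, 3.47%, 2.91% and 3.24% in unstressed and 5.59%, 5.85%, 5.60% and 5.49% in stressed tagged cells with vehicle. With auxin the values were 3.70%, 4.04%, 4.32% and 3.98% against 5.27%, 6.02%, 4.36% and 5.97%. The stressed values were higher without overlap in both. Labelled reads of LMAN2 rose by 1.15 ± 0.21, 1.31 ± 0.21 and 1.07 ± 0.21 log2 units. CLIC4 (chr1:24745447-24844321) rose by 1.92 ± 0.34, 2.15 ± 0.36 and 2.00 ± 0.32. Its shares in stressed tagged cells with vehicle were 10.3%, 17.3%, 18.6% and 17.5%, against 5.56%, 5.43%, 4.63% and 8.80% unstressed, on 24 to 407 reads per library.

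CHPF and FKBP1A had the smallest rises of the 9. FKBP1A (chr20:1368978-1393054) rose by 0.67 ± 0.20, 0.82 ± 0.19 and 1.03 ± 0.20 log2 units in labelled reads, and CHPF (chr2:219538954-219543809) by 0.79 ± 0.23, 0.84 ± 0.23 and 0.74 ± 0.24. Without the library that stood apart, the CHPF rise in parental cells with auxin was 0.58 ± 0.22 (edgeR adjusted p = 0.076). Its place among the 9 thus rests on that library. Scaled by total reads, CHPF changed by 0.50, 0.63 and 0.51 (adjusted p = 0.127, 0.0573 and 0.148) and FKBP1A by 0.38, 0.62 and 0.79 (0.184, 0.0212 and 0.00353). CHPF total reads differed by 0.29 ± 0.20, -0.30 ± 0.20 and -0.28 ± 0.20 log2 units, none past the threshold. CHPF shares in tagged cells with vehicle were 3.84%, 3.04%, 3.65% and 2.66% unstressed and 4.98%, 7.93%, 5.35% and 6.41% stressed, without overlap.

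**Figure D4:**
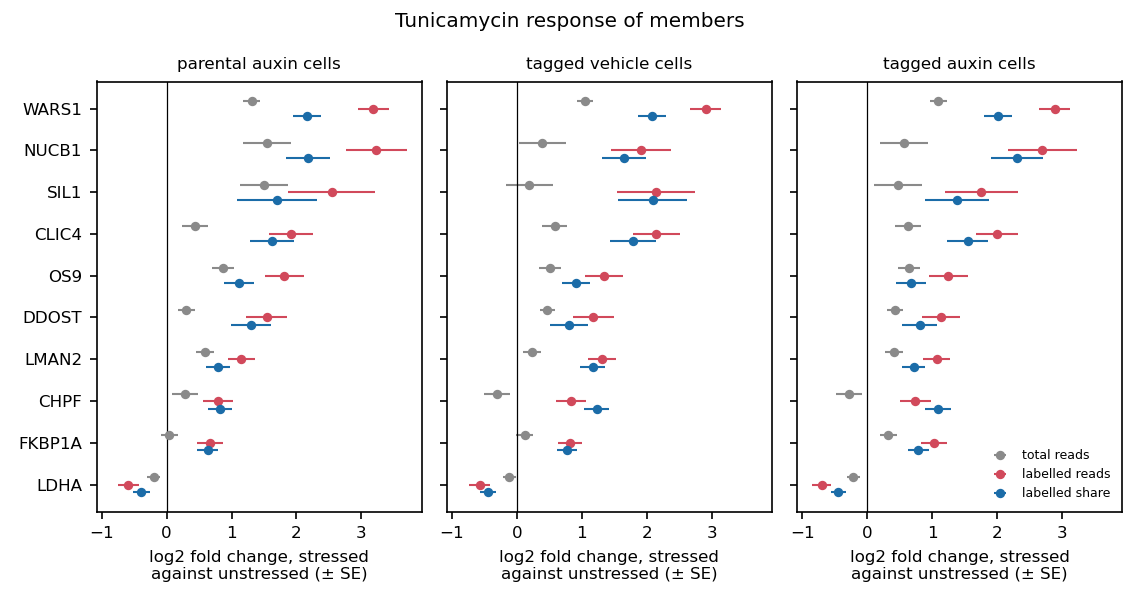
Log2 fold change under tunicamycin (x axis, ± SE) of total reads (grey), labelled reads (red) and labelled share (blue) for the members with more labelled reads in all 3 comparisons and for LDHA, 1 panel per comparison. WARS1 is farthest right in labelled reads in tagged cells, and LDHA lies left of 0 in all 3 panels.

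LDHA (chr11:18394563-18408425), which turns pyruvate into lactate, was the member with fewer labelled reads in all 3 comparisons. Another 11 were lower in 1 or 2 of them, some by more than LDHA. COL18A1 changed by -2.76 ± 0.90 log2 units in tagged cells with auxin. SLC25A1 changed by -2.42 ± 0.64 and ATP6V0E2 by -1.93 ± 0.57 in tagged cells with vehicle. The COL18A1 and ATP6V0E2 calls were lost in some fits without 1 library (edgeR adjusted p up to 0.122 and 0.0688). LDHA shares were 4.94%, 4.88%, 5.24% and 5.03% in unstressed parental cells with auxin and 2.52%, 3.46%, 2.83% and 3.14% under stress. Tagged cells with vehicle had 4.70%, 4.88%, 4.73% and 5.62% and then 2.75%, 3.62%, 3.29% and 2.87%. Those with auxin had 5.21%, 5.21%, 4.83% and 4.59% and then 2.40%, 3.54%, 3.24% and 3.03%. No stressed library reached the lowest unstressed one. LDHA labelled reads fell by 0.59 ± 0.16, 0.57 ± 0.16 and 0.70 ± 0.15 log2 units (edgeR adjusted p = 0.00931, 0.00999 and 0.000591). Total LDHA reads changed by -0.20 ± 0.10, -0.12 ± 0.10 and -0.21 ± 0.10, none past the threshold. Calls for LDHA are near the threshold: in tagged cells with vehicle the labelled reads gave adjusted p = 0.0779 without replicate 4 of the stressed group, and in parental cells 0.0746 with the compared groups fitted alone.

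The other glycolytic members had lower raw shares under stress too, but mostly not against the typical gene. PKM shares were 1.89% to 2.26% in stressed parental cells with auxin and 2.76% to 3.38% in unstressed ones. ENO1 went from 4.42% to 4.85% down to 2.98% to 3.57%. Relative to the typical gene, the PKM share changed by -0.28 ± 0.10, -0.20 ± 0.10 and -0.15 ± 0.10 log2 units and the ENO1 share by -0.11 ± 0.09, -0.15 ± 0.08 and -0.07 ± 0.08, none past the threshold. PGK1 was within 0.07 of 0 in each. TPI1 fell by 0.48 ± 0.16 in parental cells with auxin and had -0.35 and -0.37 in tagged cells, short of the threshold. Without the library that stood apart, the TPI1 change in parental cells was -0.39 ± 0.17 and did not pass (edgeR adjusted p = 0.165).

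Relative to the typical gene, the labelled share rose in 14 members and fell in 11 in parental cells with auxin (8.92% and 7.01% of the 157). Of all genes, 5.33% rose and 2.67% fell. With vehicle, tagged cells had 17 that rose and 7 that fell (10.8% and 4.46%, against 5.08% and 1.93%). With auxin, 13 rose and 6 fell (8.28% and 3.82%, against 5.07% and 2.04%). Without centring on the typical gene, whose share fell by 0.38, 0.28 and 0.31 log2 units, 6 rose and 39 fell, 11 rose and 24 fell, and 5 rose and 28 fell. The members' medians were -0.42, -0.26 and -0.33 on that scale. A member whose reads are high only under stress could pass the filter through that group, so these counts do not describe all 200.

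In share, 9 members rose in all 3 comparisons: WARS1, NUCB1, CLIC4, CHPF, LMAN2, FKBP1A, NT5E, FTH1 and HMGA1. How many of all genes did so is not given here. NT5E, the ecto-enzyme that makes adenosine from AMP, rose by 1.42 ± 0.41, 1.75 ± 0.49 and 1.17 ± 0.37 log2 units. The last of these was lost with limma (adjusted p = 0.202). FTH1, the ferritin heavy chain, rose by 0.83 ± 0.15, 0.47 ± 0.14 and 0.62 ± 0.13, and HMGA1 by 0.33 ± 0.09, 0.27 ± 0.09 and 0.43 ± 0.09. Uncentred, HMGA1 changed by -0.01, 0.01 and 0.14 and FTH1 by 0.49, 0.21 and 0.34, so the HMGA1 share kept its raw level while that of the typical gene fell. Of these 9, only WARS1, NUCB1 and CLIC4 passed uncentred in all 3 comparisons. CHPF and FKBP1A missed in parental cells with auxin (adjusted p = 0.0908 and 0.23), and LMAN2 missed there and in tagged cells with auxin (0.098 and 0.101). NT5E missed in the same pair (0.0591 and 0.0893), FTH1 in both tagged comparisons (0.411 and 0.113) and HMGA1 in all 3. LDHA fell in share in all 3, centred and uncentred. In parental cells with auxin its centred fall did not pass without the library that stood apart (-0.37 ± 0.13, edgeR adjusted p = 0.0614). With limma on log2 ratios its fall did not pass in tagged cells with vehicle (-0.46, adjusted p = 0.075) or with auxin (-0.48, 0.063). It was also lost in tagged cells with vehicle without replicate 4 of the unstressed group or replicate 1 or 4 of the stressed group (adjusted p up to 0.14), and with auxin without replicate 2 of the unstressed or replicate 4 of the stressed group (up to 0.0908).

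GPS1, a subunit of the COP9 signalosome, fell in share by 1.34 ± 0.30 in parental cells with auxin and by 1.45 ± 0.28 in tagged cells with vehicle, with -0.38 ± 0.31 (adjusted p = 0.541) in tagged cells with auxin. In tagged cells with vehicle its shares were 4.13%, 4.41%, 5.56% and 4.27% unstressed and 1.22%, 1.59%, 1.80% and 1.25% stressed. With auxin they were 2.34%, 2.46%, 3.91% and 2.42%, and then 1.93%, 1.44%, 1.82% and 1.79%. The unstressed auxin values all lie below the unstressed vehicle ones, a difference that did not pass the test. No share difference between the stress responses with auxin and with vehicle passed the test in any member.

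Of the 9 members with more labelled reads in all 3 stress comparisons, only WARS1, SIL1, DDOST and LMAN2 belong to a gene list. Those lists rose broadly in labelled reads. Of ER chaperones and disulfide isomerases, 27, 29 and 27 of 31 tested genes rose in the 3 comparisons, with medians of 2.00, 2.14 and 2.21 log2 units and SIL1 as the slow-turnover member. Translocon and N-glycosylation genes rose in 27, 27 and 30 of 43. Of the 2 members there, DDOST rose, whereas PRKCSH was not among the members called under stress. The PRKCSH share, pooled over libraries, went from 4.32% to 2.82% in parental cells with auxin. It went from 5.59% to 2.74% in tagged cells with vehicle and from 4.13% to 2.20% with auxin. Vesicle coat and p24 genes rose in 26, 24 and 24 of 36, with LMAN2. ATF4 and CHOP targets rose in 35, 37 and 37 of 41 and tRNA synthetases in 9, 11 and 11 of 20, with WARS1 in both lists. EIF4EBP1, the other ATF4 and CHOP member, passed in labelled reads only in tagged cells with vehicle (2.08 ± 0.62). Lists with a larger fraction of slow-turnover members differed among themselves, against 7.93%, 6.93% and 6.93% of all genes with more labelled reads. Annexins and S100 proteins rose in 8, 5 and 3 of 14, with medians of 0.67, 0.44 and 0.45 log2 units. Of their 4 members, ANXA6 rose by 1.94 ± 0.49 in parental cells with auxin and by 1.87 ± 0.52 in tagged cells with vehicle, and S100A16 by 0.73 ± 0.20 in parental cells. Lysosomal genes were higher in 0, 2 and 0 of 28, glycolysis genes in 0 of 16 each time with 1 lower, and large-subunit ribosomal proteins in 0, 0 and 1 of 48. PSAP was the lysosomal member that rose, by 0.68 ± 0.18 in tagged cells with vehicle, where the other 2 comparisons gave 0.06 ± 0.19 and 0.24 ± 0.18.

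With all libraries fitted, few slow-turnover members passed the test in total reads under stress in tagged cells. With vehicle 2 of 199 rose (WARS1 and DDOST) and with auxin 3 (WARS1, OS9 and DDOST), 1.01% and 1.51%, and none fell. Of all 11174 genes tested, 2.92% rose and 1.09% fell with vehicle, and 3.01% rose and 1.12% fell with auxin. Without the library that stood apart, which is in neither comparison but enters the common fit, 5 and 13 members rose (2.51% and 6.53%), against 7.71% and 8.24% of all genes called in either direction. With the compared groups alone 9 and 16 members were called (4.52% and 8.04%), against 7.47% and 9.02% of all genes. Of these members 8 and 15 rose and 1 fell each time. Of all genes, 530 of 10412 and 604 of 10624 rose, and 248 and 354 fell. At an unadjusted p under 0.05 there were 5 and 18 members (2.51% and 9.05%, against 13.1% and 13.7% of all genes). DDOST rose by 0.47 ± 0.12 and 0.43 ± 0.12. Its calls sat at the threshold, with adjusted p up to 0.145 and 0.15 when 1 library was left out, and 0.0532 with a replicate block in tagged cells with auxin.

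In parental cells with auxin 24 members (12.1%) rose in total reads and 0 fell, against 7.2% and 3.19% of all genes. This count rests on the library that stood apart. Without it 8 rose and 1 fell, and 6 of the 24 were kept. In either direction these were 4.52% of members, against 9.27% of all genes. Of the 11246 genes then tested, 657 rose and 385 fell. The 8 were WARS1 (1.17 ± 0.11), OS9 (0.57 ± 0.11), DDOST (0.43 ± 0.10), LMAN2 (0.34 ± 0.09), SIL1 (0.45 ± 0.14), ANXA6, ISOC2 and CLIC4, and the member that fell was NME4 (-0.32). NUCB1 had 1.54 ± 0.37 with that library and 0.48 ± 0.16 without it (adjusted p = 0.0521). In that library NUCB1 was at 488 CPM and in the other 3 stressed ones at 67.6 to 89.7. Of the labelled-read calls in that comparison 18 of 22 were kept without the library, and of the share calls 19 of 25.

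**Figure D5:**
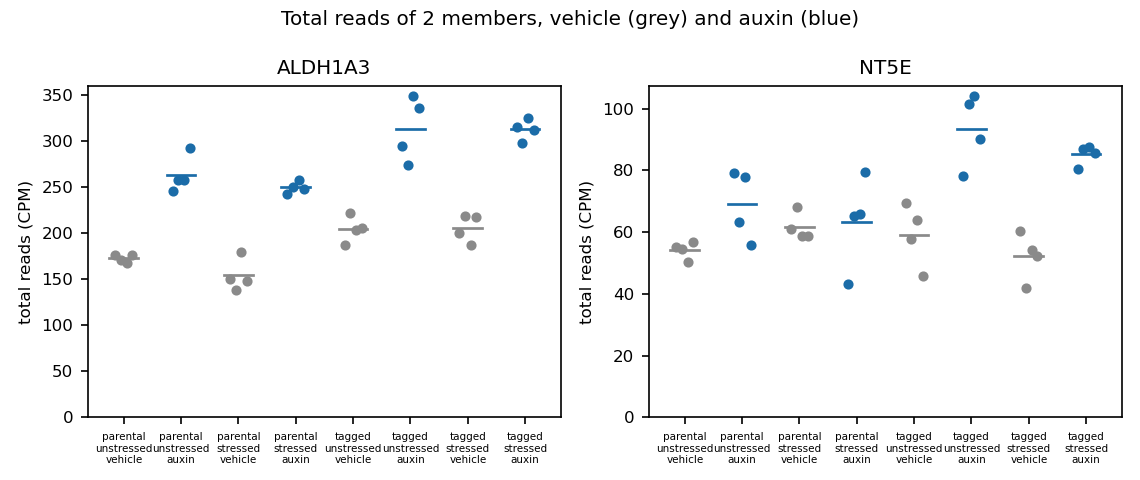
Total reads (y axis, CPM) of ALDH1A3 and NT5E in each library by group, with grey points for vehicle and blue for auxin. ALDH1A3 is higher with auxin in parental and in tagged cells, and NT5E is higher with auxin in tagged cells.

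With auxin, ALDH1A3 had more total reads in cells with and without the tag, and how many other members passed depended on the libraries in the fit. With all libraries fitted, in unstressed tagged cells total reads of NT5E and ALDH1A3 rose and those of NDUFAF3 fell, 3 of 199 members (1.51%), against 0.68% of all genes. In stressed tagged cells ALDH1A3 alone passed (0.503%, against 0.0179% of all genes). In stressed parental cells, which have no degron, ALDH1A3 alone passed as well (0.503%, against 0.0179%). The first of these counts, 3, became 57 without the library that stood apart and 71 with the compared groups alone. The second, 1, became 6 (3.02%, against 1.97% of all genes) and 37 (18.6%, against 12.4%).

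ALDH1A3, an aldehyde dehydrogenase that makes retinoic acid, was at 187, 222, 203 and 205 CPM in unstressed tagged cells with vehicle and at 295, 274, 350 and 336 with auxin. In stressed tagged cells it went from 201, 219, 187 and 217 to 316, 298, 326 and 313. In stressed parental cells it went from 150, 138, 180 and 149 to 243, 251, 258 and 248. The groups did not overlap in any of these. The log2 changes of ALDH1A3 were 0.62 ± 0.09, 0.60 ± 0.09 and 0.70 ± 0.09 (edgeR adjusted p = 0.00222, 0.00337 and 0.000232). Fitted on the compared groups alone, the parental change was 0.70 ± 0.15 at adjusted p = 0.859. The auxin response of stressed tagged cells minus that of stressed parental cells was -0.10 ± 0.13 (adjusted p = 0.674). Unstressed parental cells with auxin were at 246, 258, 258 and 293 CPM, and with vehicle, where members were chosen and no test was made, at 176, 171, 168 and 177.

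NT5E was at 69.3, 57.9, 63.9 and 45.8 CPM in unstressed tagged cells with vehicle and at 78.1, 101, 104 and 90.0 with auxin, a log2 change of 0.66 ± 0.14 (edgeR adjusted p = 0.0355). In stressed tagged cells it went from 60.4, 41.9, 54.3 and 52.1 to 80.3, 87.0, 87.7 and 85.6, or 0.71 ± 0.14 at adjusted p = 0.104, and 0.00429 without the library that stood apart. The auxin libraries were above all vehicle libraries in both. In stressed parental cells the NT5E change was 0.08 ± 0.14. The tagged change minus the parental one was 0.63 ± 0.20 at adjusted p = 0.166, so a difference between the lines was not established. The NT5E call in unstressed tagged cells was lost in 6 of the fits that left out 1 of its 8 libraries, with adjusted p up to 0.19.

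NDUFAF3, an assembly factor of respiratory complex I, fell by 0.48 ± 0.11 log2 units in unstressed tagged cells (adjusted p = 0.0383). It went from 125 ± 3.82 to 90.3 ± 12.6 CPM (SD, n = 4). The call was lost in 8 of the fits that left out 1 library (adjusted p up to 0.275). In stressed cells the NDUFAF3 changes were -0.24 ± 0.11 with the tag and -0.19 ± 0.11 without it, neither past the threshold.

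Most members had somewhat fewer total reads with auxin in tagged cells, and the covered T positions per read moved with that. The median change over 199 members was -0.22 log2 units unstressed and -0.16 stressed, while that of all genes was within 0.01 of 0. Libraries of unstressed tagged cells covered 21.6 to 22.1 T positions per read with vehicle and 22.6 to 24.1 with auxin, and stressed ones 21.3 to 22.5 and 22.6 to 22.9. With that measure as a covariate the members' medians were -0.07 and -0.03. In that fit 2 members were called higher and 15 lower unstressed (8.54%, against 3.6% of all genes), and 2 and 0 stressed (1.01%, against 0.242%). In both pairs the ranges of covered T positions did not overlap, so auxin and that measure cannot be told apart within them. The 57 members that passed in unstressed tagged cells without the library that stood apart were 4 higher and 53 lower (28.6%, against 15.8% of all genes). With the compared groups alone, 8 were higher and 63 lower unstressed (35.7%, against 19.8% of all genes), and 7 and 30 stressed (18.6%, against 12.4%). In stressed parental cells the median was 0.21 with the library that stood apart and -0.01 without it.

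Labelled reads were tested for auxin in tagged cells, and the count of members depended on the fit. With all libraries no member passed in unstressed tagged cells (0.201% of all genes did) or in stressed tagged cells (0% of all genes). At an unadjusted edgeR p under 0.05 were 22 and 11 members (14.0% and 7.01%, against 12.4% and 10.6% of all genes). With the compared groups alone 6 and 2 members passed (5.5% and 1.92%, against 3.95% and 2.3% of all genes). Without the library that stood apart 4 and 2 passed (2.47% and 1.23%, against 1.83% and 0.983%). Scaled by total reads, 3 passed in unstressed tagged cells (1.91%, against 0.637% of all genes). For the share, the 3 auxin comparisons, the tagged minus parental auxin response and the auxin minus vehicle stress response called 0 members and 0% of all genes each. In these 5 comparisons 13, 12, 8, 15 and 9 members had an unadjusted p under 0.05 (5.10% to 9.55%, against 5.28% to 7.26% of all genes), and limma on log2 ratios called 0 in each.

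Total reads gave 0 members and 0% of all genes in both tests of a difference between responses, with all libraries fitted. The auxin response of stressed tagged minus stressed parental cells had 82 members at an unadjusted p under 0.05 (41.2%, against 21.8% of all genes). The members' median was -0.37 log2 units. Without the library that stood apart this response had 35 such members of 199, against 1621 of 11246 genes. The members' median was then -0.15, and 0 members passed. Without replicate 4 of the stressed parental auxin group 53 members passed, and the share of all genes in that fit is not given here. The stress response of tagged cells with auxin minus that with vehicle had 0 members at an unadjusted p under 0.05, against 1.36% of all genes, and a median of 0.06. DESeq2 called 0 members in both, and of all genes it called 28 in the first and 0 in the second.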

How the data were processed

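SLAM-seq 3′-end (QuantSeq) libraries of 32 wells were analysed, 4 in each of 8 groups taken from the labels. Per the file headers, the deposited Slamdunk tables give, for each transcript, whole-number counts of reads, reads with T-to-C conversions, covered T positions and conversions. The build is hg38, per the submitters' processing notes. Slamdunk's version and thresholds, the minimum of conversions in a labelled read and the annotation release are not given in the sources used here. Each table had 95582 rows, of which 40006 of 40767 curated mRNA rows matched a symbol in the RefSeq table of GRCh38.p14, and unmatched rows stayed out of library sizes.

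The row with the most reads stood for a gene, and of genes with identical counts 1 was kept (827 dropped). Fits used edgeR 4.0.16 (R 4.3.3): TMM, filterByExpr over the 8 groups, robust quasi-likelihood tests on all 32 libraries and Benjamini-Hochberg adjustment at 0.05 over all genes. Labelled reads had TMM factors of their own. The share was tested as labelled against other reads with a term per library. CPM values use TMM-scaled sizes.

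DESeq2 1.42.0, limma 3.58.1 (pseudocount 0.5) and other filters, scalings, covariates and library sets were alternatives. Intervals are 95% Wilson intervals and a 0 allows 3 counts; both cover counting error only, as reads carry no molecular identifiers. Recovery was measured on simulated data for stress in tagged vehicle cells (8955, 8539 and 8559 genes for total reads, labelled reads and share). In that order, a change of 1 log2 unit was recovered in 98.0% of 100, 65.0% of 100 and 77.8% of 99 changed genes. A change of 2 units was recovered in 100% of 100, 95.8% of 96 and 98.9% of 95. Whether these rates hold for the members, or with a library that stands apart, was not tested. The members, gene lists and tests were chosen with earlier results of these data known. In each comparison, the up to 8 higher and 8 lower called members with the largest change and groups that did not overlap were listed. Not all of these are named in the text. Members called in all 3 stress comparisons, and further list members, were named after their values were seen. 1 member gene is not reported by name here.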

Additional observations from a re-analysis of the deposited data

Results flagged for a closer look

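In groups of 4 libraries, a highest or lowest value was taken up where its gap to the nearest other over the range passed Dixon's 95% critical value. This held for 14 of 184 groups (7.61%), where chance gives about 1 in 20.

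Of these, 9 belong to replicate 1 of parental cells given tunicamycin and auxin. The members covered 13.6 T positions per read there and 18.8 to 19.1 in the other 3 libraries. NUCB1 was at 488 CPM (others 67.6 to 89.7), SIL1 at 302 (41.1 to 56.1), CHPF at 619 (206 to 239), LMAN2 at 640 (315 to 362) and OS9 at 446 (209 to 230). DDOST was lower, at 76.4 CPM (127 to 135). CHPF had a labelled share of 4.94% (6.19% to 6.37%) and FKBP1A of 7.05% (4.13% to 4.51%).

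The other 5 were spread over groups. DDOST had a share of 9.52% in replicate 1 of stressed parental cells with vehicle (others 6.62% to 6.89%). In stressed tagged cells with vehicle CHPF was at 312 CPM in replicate 4 (250 to 256), and CLIC4 had a share of 10.3% in replicate 1 (17.3% to 18.6%). In stressed tagged cells with auxin CHPF was at 209 CPM in replicate 3 (243 to 244), and WARS1 had a share of 11.8% in replicate 1 (16.5% to 17.1%). The causes were not tested.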

How the results depend on the processing

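Of 93 calls of members listed by the rule, 0 changed direction. Outside them, the HMGA1 share in parental cells with auxin was 0.33 centred and -0.01 uncentred. Of the 93, 60 held under all other settings, 55 in all fits without 1 library and 44 in both. Counts of members called moved as follows, and the causes were not tested. For the ranges without 1 library and the replicate block, shares of all genes are not given below.

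For total reads under stress, parental cells with auxin (24) gave 12 with covered T positions as a covariate, 1 with the compared groups alone and 53 with DESeq2. These were 6.03%, 0.503% and 26.6% of members, against 10.8%, 1.09% and 15.2% of all genes. Tagged cells with vehicle (2) gave 9 with the covariate and 9 with the compared groups, and with auxin (3) 15 and 16. In that order, members had 4.52%, 4.52%, 7.54% and 8.04%, against 9.17%, 7.47%, 9.54% and 9.02% of all genes. For total reads with auxin, unstressed tagged cells (3) gave 17 with the covariate, 71 with the compared groups and 11 with DESeq2. These were 8.54%, 35.7% and 5.53% of members, against 3.6%, 19.8% and 4.84% of all genes. Stressed tagged cells (1) gave 2, 37 and 2 (1.01%, 18.6% and 1.01%, against 0.242%, 12.4% and 0.277% of all genes). Stressed parental cells (1) gave 0 with the compared groups (0% of all genes) and 10 with DESeq2 (5.03%, against 1.49%). Labelled reads under stress in parental cells with auxin (22) gave 7 with the compared groups (6.36%, against 6.4% of all genes). With auxin they gave 3 (scaled by total reads) and 6 (compared groups) in unstressed and 2 (compared groups) in stressed tagged cells, where the fit on all libraries gave 0. Shares under stress gave 45 uncentred in parental cells with auxin (25), 11 with limma in tagged cells with vehicle (24), and 33 uncentred and 10 with limma in tagged cells with auxin (19). In that order, members had 28.7%, 7.01%, 21.0% and 6.37%, against 16.9%, 4.77%, 12.3% and 4.54% of all genes.

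Leaving out 1 library gave 9 to 80 for total reads under stress in parental cells with auxin. There, 9 came without replicate 1 of the stressed auxin group, 56, 54 and 80 without its replicates 2, 3 and 4, and 10 without replicate 1, 2 or 3 of the unstressed auxin group. The range was 1 to 5 in tagged cells with vehicle and 1 to 13 with auxin, with the highest of both without that same replicate 1 and the lowest without a library of the groups compared. With auxin it was 1 to 57 in unstressed tagged cells, 0 to 6 in stressed tagged cells (57 and 6 without that replicate 1, and 0 without replicate 3 of the stressed tagged vehicle group) and 1 to 55 in stressed parental cells (55 without replicate 4, 14 and 11 without replicates 2 and 3 of the stressed auxin group). The tagged minus parental auxin response gave 0 to 53, with 53 without that replicate 4, and the auxin minus vehicle stress response 0. Labelled reads gave 17 to 23, 15 to 21 and 10 to 22 under stress (in tagged cells with auxin 10 without replicate 2 of the unstressed and 11 without replicate 2 or 4 of the stressed group), and 0 to 4 and 0 to 2 with auxin, both highest without that replicate 1. Shares gave 17 to 26, 17 to 26 and 13 to 22 under stress and 0 with auxin.

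Replicates share only numbers: deviations of same-numbered libraries correlated at -0.403 to 0.542. With the number as a block, stress gave 17, 2 and 2 members for total reads, 20, 18 and 16 for labelled reads and 25, 25 and 19 for shares, and auxin gave 3, 1 and 1 for total reads and 0 for the rest.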
